A study of Homo sapiens with 6 samples.

Results

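The Notch pathway was followed through 10 genes: the receptors NOTCH1, NOTCH2 and NOTCH3, the ligands JAG1, JAG2, DLL1 and DLL3, and the transcription factors HES1, HEY1 and HEY2. The genes were taken by symbol, and each of the 10 matched 1 of the 48114 rows of the table. RNA was sequenced from TC-71 cells, a human Ewing sarcoma line with WT listed as its genotype, cultured in serum-containing IMDM. The cells received the inhibitor BEZ235, a blocker of PI3K, a kinase of membrane lipids, and of mTOR, a kinase that drives cell growth, or its solvent dimethyl sulfoxide (DMSO), each for 16 h. Both groups held 3 libraries, which the labels call biological replicates, of a single cell line. The comparison asks how transcript levels differ when PI3K and mTOR are inhibited.

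Notch receptors are single-pass membrane proteins that are activated by ligands of the Jagged and Delta-like families on neighbouring cells. Ligand binding exposes the receptor to an ADAM protease and then to gamma-secretase, and the released intracellular domain enters the nucleus. There it joins the DNA-binding protein RBPJ and a Mastermind coactivator at target genes, of which the HES and HEY families of repressors are the best known. In Ewing sarcoma cells, HES1 expression has been described as uncoupled from Notch receptor activity.

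With BEZ235 the 3 receptor transcripts rose, and the ligands moved in both directions: JAG1 and DLL1 fell while DLL3 and, by a small margin, JAG2 rose. Among the transcription factors HES1 and HEY2 fell to less than 0.5 of their DMSO levels, and HEY1 rose 2.42-fold. Each of the 10 genes passed the test, 6 higher and 4 lower in BEZ235, where 66.3% of the 23923 genes tested were called (33.1% higher, 33.2% lower). Of the 10, 4 changed at least 2-fold in the main fit, where 26.3% of all tested genes were called with such a change. On the log2 scale the 95% intervals of HES1 (-1.37 to -0.98) and HEY2 (-1.61 to -0.61) also held changes below 2-fold. The HEY2 log2 fold change was -0.93 without BEZ235 replicate 3. The groups did not overlap for any of the 10, nor for 70.9% of all tested genes. In bulk RNA, fewer cells expressing a gene and less RNA per cell cannot be told apart. The test was limma on log2(normalized count + 1), with Benjamini-Hochberg adjustment over all tested genes and a threshold of 0.05.

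The promoters of HES1 and HEY2, the 2 transcription factor genes that fell, are shown because each holds the RBPJ core sequence GTGGGAA. The sequences are from RefSeq (GRCh38.p14), 250 bases before to 50 bases after the gene start, which is HES1 at chr3:194135898-194136197 and HEY2 at chr6:125749382-125749681, both on the plus strand. Capitals mark GTGGGAA or its reverse complement TTCCCAC.
HES1: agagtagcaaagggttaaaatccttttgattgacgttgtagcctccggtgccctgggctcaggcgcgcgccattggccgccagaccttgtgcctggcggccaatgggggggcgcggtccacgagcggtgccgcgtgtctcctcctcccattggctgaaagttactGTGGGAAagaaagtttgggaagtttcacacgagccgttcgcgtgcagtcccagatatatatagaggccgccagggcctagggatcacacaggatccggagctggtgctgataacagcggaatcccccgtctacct
HEY2: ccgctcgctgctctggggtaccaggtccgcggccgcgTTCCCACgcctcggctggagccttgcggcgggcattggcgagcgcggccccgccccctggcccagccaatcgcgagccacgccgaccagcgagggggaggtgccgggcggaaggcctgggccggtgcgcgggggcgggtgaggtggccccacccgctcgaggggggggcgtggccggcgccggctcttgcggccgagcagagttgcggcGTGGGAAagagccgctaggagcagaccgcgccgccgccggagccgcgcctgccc

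The RBPJ core starts 85 bases before the RefSeq start of HES1, and 213 and 4 bases before that of HEY2. Only exact copies of the core were searched for, so sites with other letters were not counted. The row of HEY2 in the deposited table begins further upstream, at position 125747633 of chromosome 6. On either strand the core was present in 6.24% of 34943 RefSeq promoters of the same length, and more than 1 copy in 0.249%. Of the 10 genes, 7 had a promoter in the RefSeq table, and HEY1, DLL1 and DLL3 did not. The windows of NOTCH1, NOTCH2, NOTCH3, JAG1 and JAG2 held no core. The HES1 window also held 4 copies of the N-box CACNAG, a sequence to which HES repressors bind, counted on both strands and overlapping none of the core sites. The N-box was found at least once in 38.0% of the promoters and in more than 1 copy in 8.96%. It was not particular to HES1: NOTCH1 held 2 copies and NOTCH2 and NOTCH3 1 each, while JAG1, JAG2 and HEY2 held none. A further sequence searched, CACGCG, had 2 copies in HES1 and 1 each in JAG1 and JAG2. It was present in 11.4% of the promoters.

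The same search was made over the HES and HEY family, 10 of whose genes had a promoter in the table, and 5 of these held the core. Each site is shown with 5 bases on either side, to allow the sites of genes that fell and of genes that did not to be compared.
HES1: ttactGTGGGAAagaaa
HES4: cgagtGTGGGAAagaat
HES5, nearer site: ggagtGTGGGAAcggcc
HES5, farther site: gcgcgTTCCCACagccc
HEY2, nearer site: gcggcGTGGGAAagagc
HEY2, farther site: ccgcgTTCCCACgcctc
HEYL: gggccTTCCCACggctc

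The core of HES4 starts 77 bases before the gene start and the nearer core of HES5 81 bases before it, close to the position in HES1, and both are on the strand of the gene. Of the 5 genes with the core, HES1, HES4 and HEY2 fell with BEZ235, HEYL rose and HES5 was not called. Of the 5 without it, HES6 and HELT fell, HES7 rose, and HES2 and HES3 were too low to be tested. Family genes with and without these letters therefore changed in both directions. HES7, the only tested gene without them that rose, lost its call in 2 of 15 alternative fits, as given below. HES3 had 13.9 ± 5.08 normalized counts with BEZ235 and 1.67 ± 2.89 (SD, n = 3) with DMSO. With no filter it was called higher (log2 fold change 2.98, limma adjusted p = 0.0105). A match describes the sequence, not binding.

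**Figure D1:**
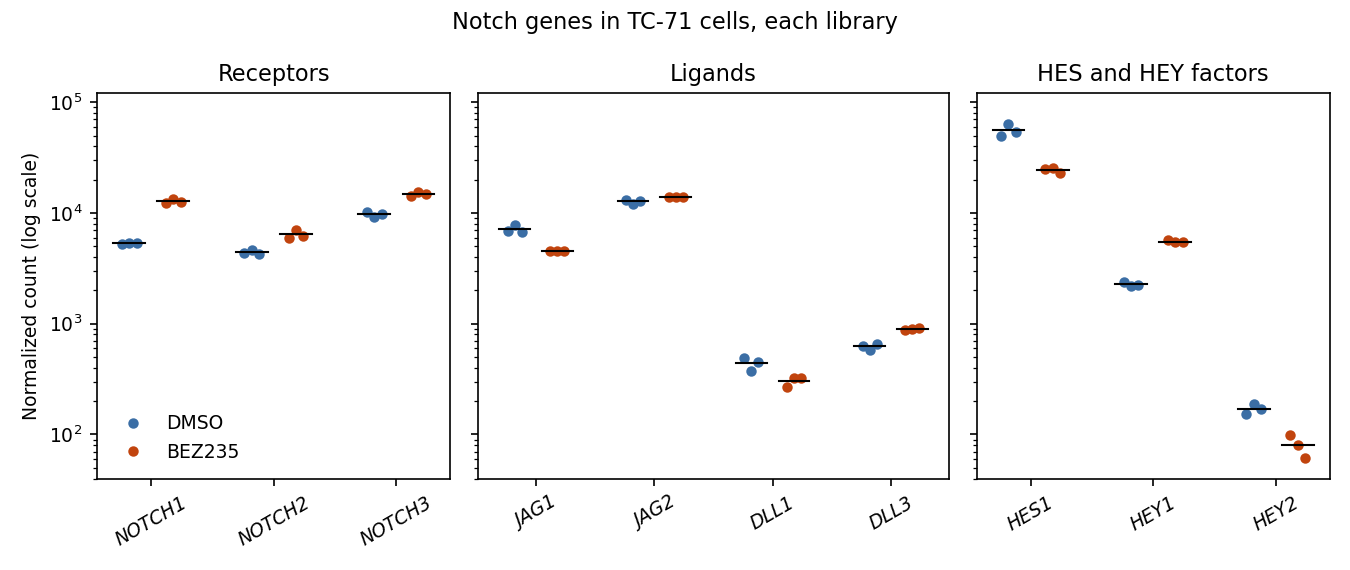
Normalized count of each of the 10 Notch genes (y axis, log scale) in every library, by role; points are libraries, blue for DMSO and red for BEZ235, and the black line is the mean of 3. The 2 groups are separate for every gene; the receptors and HEY1 lie higher in BEZ235, and JAG1, DLL1, HES1 and HEY2 lie lower.

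The 3 receptors rose together, NOTCH1 by the most. NOTCH1 (GSHG0045301 in the FASTDB annotation, hg38 chromosome 9, 136494433 to 136546048) had normalized counts of 12439, 13486 and 12642 after BEZ235 and of 5284, 5357 and 5381 after DMSO. Every BEZ235 library was more than 2-fold above every DMSO library. The log2 fold change was 1.27 (SE 0.052, limma adjusted p = 6.25e-09), and 21.4% of all tested genes changed by more in either direction. The microRNA MIR4673 lies within the NOTCH1 row, and its own row held 25.9 ± 13.6 (SD, n = 3) normalized counts in BEZ235 and 13.1 ± 4.90 in DMSO. MIR4673 was not called (limma adjusted p = 0.183), and its groups overlapped.

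NOTCH3 (GSHG0022463, chromosome 19, 15159038 to 15200995) is a receptor best known from smooth muscle and pericytes. It had 14341, 15332 and 14693 normalized counts with BEZ235 against 10208, 9151 and 9841 with DMSO, so that the lowest treated library stood well above the highest control. Its log2 fold change was 0.60 (SE 0.056, limma adjusted p = 3.15e-06).

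NOTCH2 (GSHG0002842, chromosome 1, 119911553 to 120069662) had 5981, 7093 and 6198 normalized counts with BEZ235 and 4325, 4624 and 4291 with DMSO. The second BEZ235 library was the highest, and the groups stayed apart. Its log2 fold change was 0.54 (SE 0.071, limma adjusted p = 4.71e-05). The human-specific partial copies NOTCH2NLA, NOTCH2NLB and NOTCH2NLC resemble the first exons of NOTCH2, so reads could be shared with it. None of these copies was called, with log2 fold changes of -0.14 (adjusted p = 0.0929), -0.01 (adjusted p = 0.926) and -0.10 (adjusted p = 0.282) in the limma test. NOTCH2NLA had the highest level of them, 2509.9 ± 140 normalized counts with BEZ235 and 2759.6 ± 123 (SD, n = 3) with DMSO.

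Summed over the 3 receptors, normalized counts ran from 32761 to 35912 with BEZ235 and from 19132 to 19818 with DMSO. To compare genes with each other, counts were divided by the length of the longest coding transcript. On this scale NOTCH3 was the leading receptor in both groups, at 1707 ± 58.0 per kb with BEZ235 and 1123 ± 61.9 (SD, n = 3) with DMSO. NOTCH1 had 1381 ± 59.7 and 574 ± 5.39 per kb, and NOTCH2 564 ± 51.8 and 387 ± 16.1. The NOTCH1 share of the receptor total was 37.7 to 38.0% with BEZ235 and 26.7 to 28.3% with DMSO, without overlap. The shares of NOTCH3 and NOTCH2 were correspondingly lower with BEZ235, at 46.1 to 47.1% against 51.8 to 55.4% for NOTCH3.

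Of the ligands, JAG1 fell and JAG2 differed little. JAG1 (GSHG0027160, chromosome 20, 10637684 to 10673999), the Jagged ligand mutated in Alagille syndrome, had 4532, 4507 and 4545 normalized counts with BEZ235. The DMSO libraries held 6818, 7863 and 6801, with DMSO replicate 2 the highest and all 3 above the treated ones. On the log2 scale JAG1 differed by -0.66 (SE 0.065, limma adjusted p = 4.88e-06). Its BEZ235 libraries lay within 38.1 normalized counts of each other.

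JAG2 (GSHG0013343, chromosome 14, 105140995 to 105168824), the other Jagged ligand, had 13958, 14020.5 and 14068 normalized counts with BEZ235 and 13194, 12119 and 12879 with DMSO. The groups did not overlap, but the gap between them was narrow. The log2 fold change was 0.14 (SE 0.051, 95% interval 0.03 to 0.25, limma adjusted p = 0.0304), and 86.8% of all tested genes changed by more. The call was lost with total-count scaling (adjusted p = 0.501). It was also lost on leaving out any library other than DMSO replicate 1: omitting BEZ235 replicate 1, 2 or 3 gave an adjusted p of 0.0778, 0.0766 or 0.0589, and omitting DMSO replicate 2 or 3 gave 0.0746 or 0.0738. Over all 15 alternatives it ran from 0.0205 to 0.501.

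The Delta-like ligands were less abundant and moved in opposite directions. DLL1 (GSHG0039097, chromosome 6, 170282206 to 170291078), an activating ligand, had 266, 323 and 326 normalized counts with BEZ235 and 487, 374 and 452 with DMSO. All 3 treated libraries were below the lowest control, DMSO replicate 2. On the log2 scale the difference was -0.52 (SE 0.14, limma adjusted p = 0.00788). The row of DLL1 overlaps the start of that of FAM120B (170290703 to 170407067), which held more reads and rose, from 3737 ± 87.4 to 4991 ± 166 (SD, n = 3) normalized counts. Whether reads of that stretch were counted for either gene was not tested.

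DLL3 (GSHG0021636, chromosome 19, 39498895 to 39508469) is an atypical ligand that stays mainly inside the cell and restrains Notch signalling in the cell that makes it. It had 884, 888 and 917 normalized counts with BEZ235 and 629.8, 583 and 661 with DMSO, with a clear gap between groups. DLL3 differed by 0.52 on the log2 scale (SE 0.089, limma adjusted p = 0.000353). The within-library ratio of DLL3 to DLL1 normalized counts was 2.75 to 3.32 with BEZ235 and 1.29 to 1.56 with DMSO.

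The summed normalized counts of the 4 ligands differed much less than those of the receptors: 19640.0 to 19856 with BEZ235 and 20793 to 21129 with DMSO. Per kb of transcript JAG2 led in both groups, with 2402 ± 9.46 (BEZ235) and 2182 ± 94.7 (DMSO), followed by JAG1 with 762 ± 3.26 and 1206 ± 102 (SD, n = 3). DLL3 had 384 ± 7.80 and 268 ± 16.9 per kb, and DLL1 96.1 ± 10.6 and 138 ± 18.2. JAG1 made up 20.8 to 21.1% of the ligand total per kb with BEZ235 and 29.95 to 35.1% with DMSO, while DLL3 held 10.4 to 10.7% and 6.63 to 7.50%. The ratio of JAG2 to JAG1 normalized counts within a library was 3.08 to 3.11 with BEZ235 and 1.54 to 1.94 with DMSO.

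**Figure D2:**
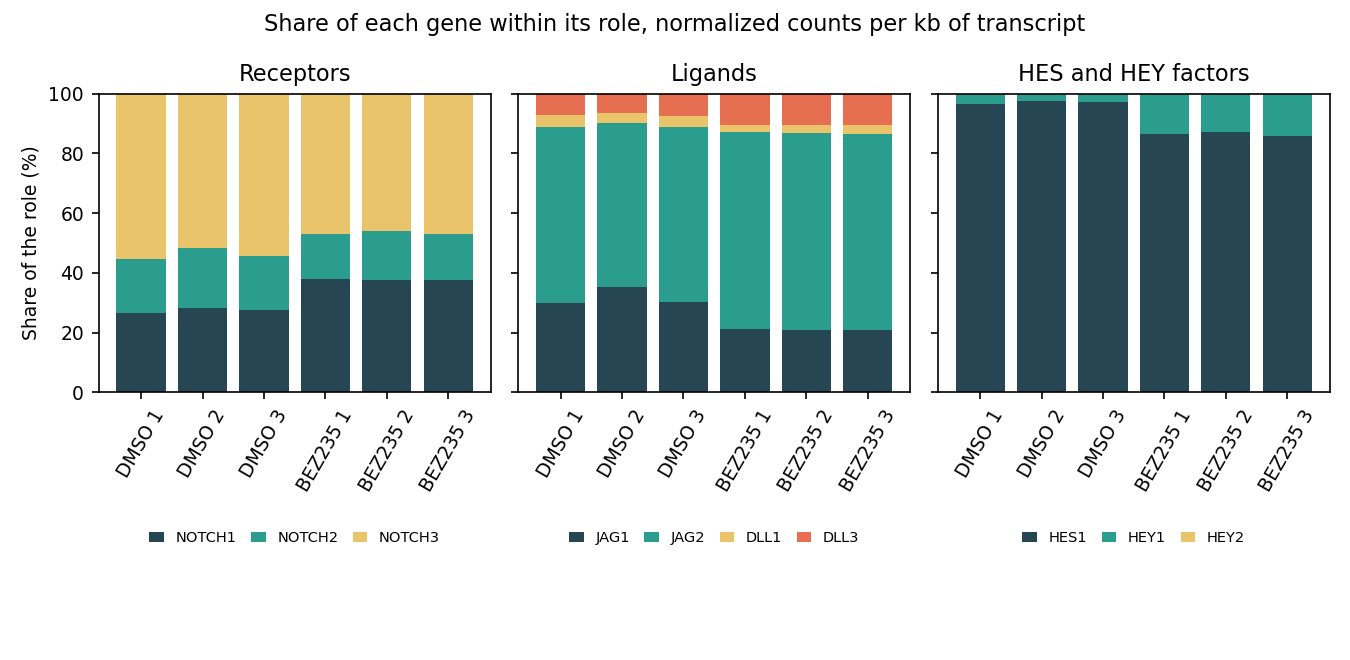
Share of each gene (y axis, percent) in the summed normalized counts per kb of its role, 1 bar per library (DMSO 1 to 3, then BEZ235 1 to 3), for receptors, ligands and HES and HEY factors. NOTCH1, JAG2, DLL3 and HEY1 take larger shares in each BEZ235 library than in any DMSO library; HEY2, at 0.133 to 0.201%, is too small to be seen.

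HES1 and HEY1, the 2 abundant transcription factors of the set, moved in opposite directions. HES1 (GSHG0030852, chromosome 3, 194136145 to 194138732), a repressor that holds back neuronal and other differentiation genes, had 24965, 25514 and 23034 normalized counts with BEZ235. With DMSO it had 49221, 64292 and 53488, so that the lowest control library was still above every treated one by a wide margin. The log2 fold change was -1.18 (SE 0.088, limma adjusted p = 5.38e-07), and 23.9% of all tested genes changed by more. The spread was wider in DMSO (SD 7768) than in BEZ235 (SD 1302), and without DMSO replicate 2, the highest library, the log2 fold change was -1.07.

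HEY1 (GSHG0042504, chromosome 8, 79764024 to 79767780) is a related repressor induced by Notch in blood vessels, bone and other tissues. It had 5646, 5445 and 5448 normalized counts with BEZ235 and 2370.0, 2212 and 2246 with DMSO. The replicates of each group lay close together and the groups far apart. The log2 fold change was 1.28 (SE 0.057, limma adjusted p = 1.15e-08), close to that of NOTCH1, and 21.1% of all tested genes changed by more. Within a library, HES1 had 4.23 to 4.69 normalized counts for each of HEY1 with BEZ235 and 20.8 to 29.1 with DMSO.

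HEY2 (GSHG0037144, chromosome 6, 125747633 to 125761271), a HEY repressor known from heart and artery development, was the scarcest of the 10 genes. It had 98.4, 80.0 and 60.7 normalized counts with BEZ235, from 85, 81 and 67 reads, and 154, 189 and 169 with DMSO, from 143, 183 and 202 reads. Each treated library was below each control, and the BEZ235 libraries differed among themselves more, in proportion, than for the abundant genes. The log2 fold change was -1.11 (SE 0.23, limma adjusted p = 0.00120). HES1 and HEY2 had similar ratios to their DMSO means, 0.440 and 0.467.

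Per kb of transcript, HES1 stood far above the other 9 genes at 15529 ± 825 with BEZ235 and 35277 ± 4923 (SD, n = 3) with DMSO. HEY1 had 2401 ± 50.1 and 991 ± 36.3 per kb, and HEY2 29.8 ± 7.04 and 63.7 ± 6.49. In DMSO the order of the 10 levels per kb was HES1, JAG2, JAG1, NOTCH3, HEY1, NOTCH1, NOTCH2, DLL3, DLL1 and HEY2. The ranges of JAG1 (1145 to 1324) and NOTCH3 (1056 to 1178) overlapped there, and those of the other neighbours did not. With BEZ235 the order became HES1, JAG2, HEY1, NOTCH3, NOTCH1, JAG1, NOTCH2, DLL3, DLL1 and HEY2, where JAG2 and HEY1 did not differ beyond their spread. JAG1 thus stood above NOTCH1 and HEY1 in DMSO and below both with BEZ235.

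**Figure D3:**
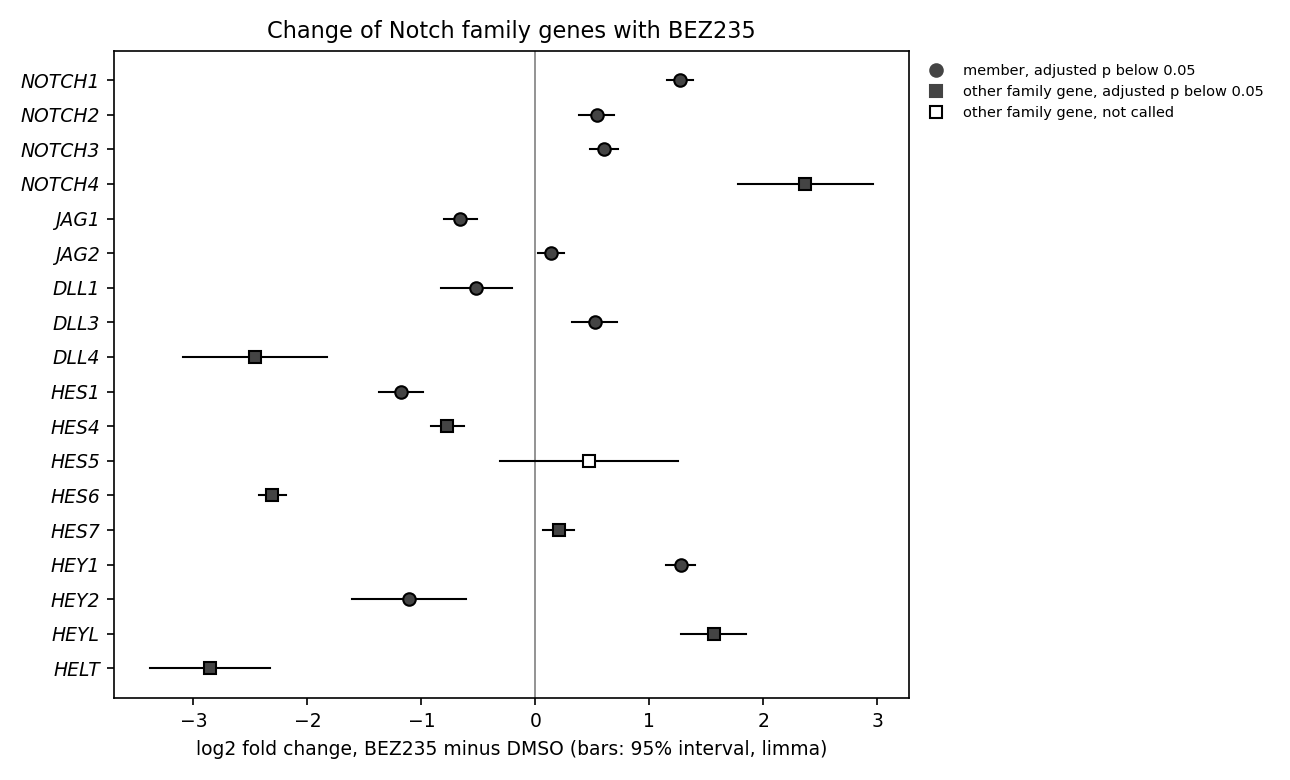
Log2 fold change of BEZ235 minus DMSO (x axis) for the 10 Notch genes (circles) and the 8 other tested genes of the same families (squares), with 95% intervals from limma; filled symbols passed the threshold of 0.05 on the adjusted p. All 4 receptors lie above 0, while ligands and HES and HEY genes lie on both sides.

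The same families hold 10 further genes, of which 8 were tested: 3 rose, 4 fell and 1 was not called. Their median log2 fold change was -0.28. Over all tested genes 33.1% were called higher and 33.2% lower. NOTCH4, the receptor of endothelial cells, was low, at 37.8, 76.4 and 41.7 normalized counts in DMSO, and rose to 269, 268 and 243 with BEZ235 (log2 fold change 2.37, SE 0.27). Its row overlaps that of GPSM3, with 705 normalized counts in BEZ235 and 496 in DMSO. DLL4, the Delta-like ligand of arteries, fell from 305, 219 and 279.6 to 38.2, 75.0 and 37.2 normalized counts (log2 fold change -2.46, SE 0.29). Neither gene overlapped between groups, and the same held for 70.9% of all tested genes.

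HES6, a family member known to counteract HES1 and promote neuronal differentiation, fell from 28529.9 ± 1118 to 5757 ± 240.0 (SD, n = 3), or by -2.31 (SE 0.054) on the log2 scale. In DMSO it was second to HES1 within the HES and HEY families, at 17831 normalized counts per kb. HES4 fell from 5179 ± 164 to 3035 ± 214 and HELT, a related repressor of midbrain neurons, from 425 ± 64.3 to 59.4 ± 17.0. HEYL, the third HEY gene, rose from 1692 ± 349 to 4942 ± 338, or by 1.57 (SE 0.13) on the log2 scale, in the direction of HEY1 and against HEY2. HES7, the oscillating repressor of somite formation, differed by 0.20 on the log2 scale (SE 0.060, limma adjusted p = 0.0114), and its adjusted p was 0.143 with total-count scaling and 0.0606 without BEZ235 replicate 1 (0.143 at most over all alternatives). HES5 was near the lower end of detection, at 24.2 to 31.0 normalized counts in DMSO and 32.6 to 48.6 with BEZ235, and was not called (adjusted p = 0.258).

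Across the other Notch pathway lists, including these family genes, 93 of 104 genes were tested, 36 rose, 36 fell and 21 were not called. That is 77.4% called, where all tested genes had 66.3%, and the median log2 fold change was -0.02, against -0.00085 for all tested genes. Gene by gene, the machinery that makes, cuts and reads the receptor changed in both directions.

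Enzymes that add sugars to the receptor, together with the convertase FURIN, had 6 of 10 genes higher and 3 lower, with a median of 0.25. For this and the following lists, the shares over all tested genes were 33.1% higher and 33.2% lower. LFNG, the Fringe glycosyltransferase that alters which ligands a receptor answers to, rose from 43.0 ± 12.2 to 309.8 ± 47.0 (SD, n = 3), which is 2.85 (SE 0.25) on the log2 scale. POGLUT1, which adds O-glucose, rose by 0.63 (SE 0.089), and GXYLT2 and FURIN had log2 fold changes of -0.91 and -0.22. Of the 8 ADAM protease and gamma-secretase genes, 4 rose and 1 fell, with a median of 0.16. The gamma-secretase subunits APH1A and APH1B rose, with log2 fold changes of 0.84 (SE 0.055) and 1.08 (SE 0.061), and ADAM17, a protease that can cut Notch at the membrane, fell from 4350.3 ± 92.8 to 2252 ± 12.4. The more abundant ADAM10 had 11336 ± 404 normalized counts with BEZ235 and 10463 ± 725 (SD, n = 3) with DMSO. It was not called (log2 fold change 0.12, limma adjusted p = 0.112). APH1A overlaps C1orf54 and ADAM17 overlaps IAH1, each of which is expressed.

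Genes of endocytosis and ubiquitin transfer had 5 of 14 members higher and 7 lower, with a median of -0.13. The Deltex ligases DTX4 and DTX3 rose, with log2 fold changes of 1.88 (SE 0.20) and 0.52 (SE 0.063). The Deltex family did not move as one: DTX3L rose by 0.58, DTX2 fell by 0.36 and DTX1 was not called (adjusted p = 0.0784). NEDD4, a ligase that marks membrane proteins for uptake, and NEURL1B, a Neuralized ligase that acts on ligands, fell, with log2 fold changes of -1.67 and -2.51. The more abundant Neuralized gene NEURL1 rose from 2498 ± 94.5 to 3365 ± 162 (SD, n = 3). The NEURL1 row overlaps that of SH3PXD2A, with 5408 normalized counts in BEZ235 and 3504 in DMSO. An unnamed row within NEURL1B held more normalized counts than NEURL1B itself, 6642 with BEZ235 and 6187 with DMSO. Non-canonical ligands had 3 of 8 tested genes higher and 2 lower, with a median of 0.02. DNER, a ligand of neurons, and MFAP2, a microfibril protein, had log2 fold changes of 1.34 and 0.59, and CNTN6 and EGFL7 of -0.96 and -0.21.

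RBPJ and its coactivators had 5 of 10 genes higher and 3 lower, with a median of 0.18. RBPJ itself, the DNA-binding subunit of the complex, fell from 6624 ± 163 to 4896 ± 185 (SD, n = 3), which is -0.44 on the log2 scale (SE 0.054, limma adjusted p = 3.01e-05). The 3 Mastermind genes differed: MAML2 fell by 0.83 and MAML3 rose by 1.09. The more abundant MAML1, at 6215 ± 330.0 normalized counts with BEZ235 and 6369 ± 115 with DMSO, was not called (limma adjusted p = 0.586). The MAML3 row overlaps that of MGST2, with 1833 normalized counts in BEZ235 and 1217 in DMSO. Whether reads were shared between them was not tested. The coactivators SNW1 and EP300 rose, with log2 fold changes of 0.47 and 0.58. Corepressors had 7 of 15 members higher and 5 lower, with a median of 0.09. CIR1, a corepressor that binds RBPJ, rose from 1880.0 ± 337 to 4578 ± 276. Among the Groucho-type corepressors that HES proteins recruit, TLE4 rose by 0.80 (SE 0.086) and TLE1 fell from 509.5 ± 22.8 to 256 ± 39.1. CTBP2 fell by 0.42; it shares part of its row with ZRANB1, SNW1 with C14orf178.

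Other genes reported as Notch targets in some tissues had 8 of 12 tested members lower and 2 higher, with a median of -0.38, where all tested genes had 33.2% lower and 33.1% higher. NRARP, a feedback inhibitor of Notch, differed by 0.21 on the log2 scale (SE 0.063, limma adjusted p = 0.0137), with adjusted p of 0.165 with total-count scaling and 0.0665 without BEZ235 replicate 1 (0.165 at most over all alternatives). CCND3, a cyclin of early cell cycle, and CDKN1A, an inhibitor of cyclin-dependent kinases, fell, with log2 fold changes of -1.19 (SE 0.067) and -2.70 (SE 0.094), and the growth regulator MYC rose by 0.45 (SE 0.072). Of 7 proneural bHLH genes that HES factors are reported to repress, only NEUROD1 and NEUROG2 were tested, and NEUROG1, NEUROG3 and NEUROD4 had no read in any library, which allows up to 2.50 to 3.47 normalized counts per library. NEUROD1 fell from 895 ± 106 to 713 ± 20.4 (adjusted p = 0.0174; 0.0541 without BEZ235 replicate 3 and 0.0691 without DMSO replicate 3, up to 0.0691 over all alternatives). Of the 6 ID and BHLHE factors, which pair with or resemble HES proteins, ID3 rose by 0.45 (SE 0.11), BHLHE40 and BHLHE41 fell by 0.98 and 0.37, and 3 were not called.

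**Figure D4:**
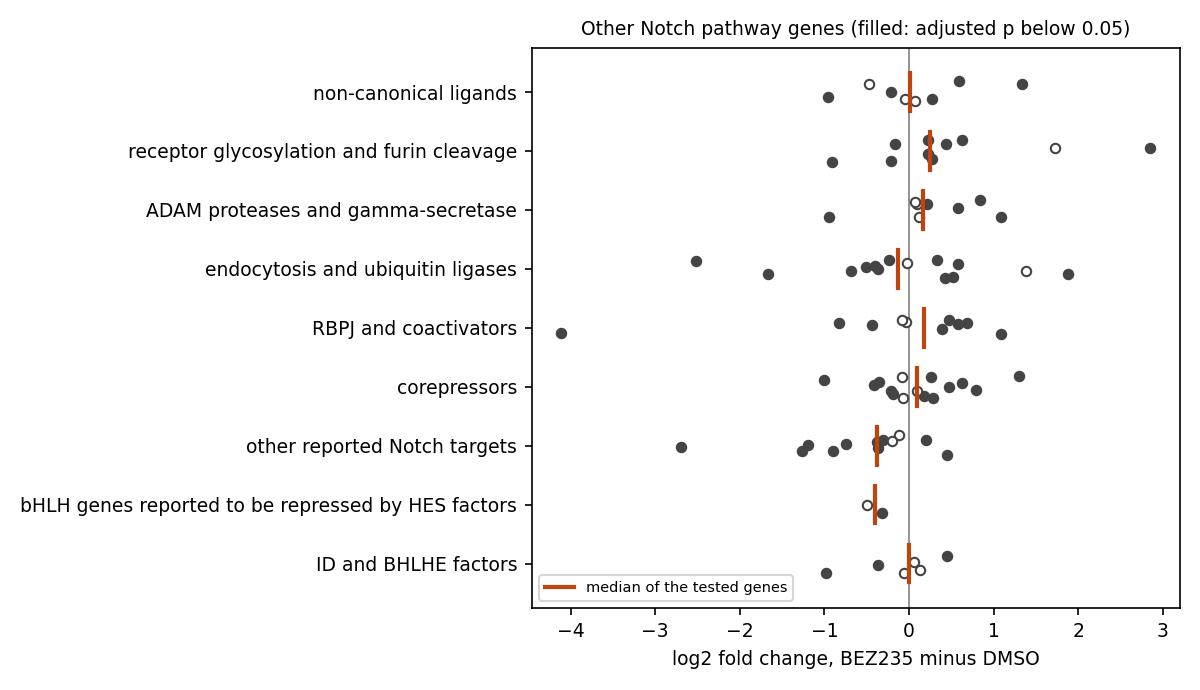
Log2 fold change of BEZ235 minus DMSO (x axis) of each tested gene in 9 Notch pathway lists; filled points passed the threshold of 0.05 on the adjusted p, open points did not, and the red bar is the median of the list. Medians lie between -0.41 and 0.25, and each list of 6 or more tested genes has called genes on both sides of 0.

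The libraries held 184790722 to 233767211 reads assigned to genes, recovered from the deposited values. The mitochondrial genome accounted for 0.507 to 0.706% of normalized counts in BEZ235 and 2.82 to 3.55% in DMSO libraries, and the part of this in the results above was not tested. Of 10 Ewing sarcoma markers all were expressed above the filter, NR0B1, NKX2-2 and CD99 among them, with summed normalized counts of 437298 to 458527 in BEZ235 and 477452 to 530897 in DMSO. CD99 and CAV1 made up most of that sum. Of the 10, 5 rose and 3 fell, where all tested genes had 33.1% higher and 33.2% lower. The log2 fold changes were -1.11 for NR0B1, 1.26 for NKX2-2 and -0.34 for CD99. None of 5 endothelial markers passed the filter (summed 11.6 to 13.8 against 2.06 to 21.6 normalized counts). Blood markers had 3 of 7 tested (2300.2 to 2426 against 2525 to 3998), with CD3E and HBB at 0. Of the tested ones CD68 fell from 2886 ± 619 to 1458 ± 32.3 (SD, n = 3). HBA1 rose from 558 ± 210 to 867 ± 41.2, and LYZ from 9.42 ± 7.47 to 34.0 ± 14.0. The CD68 row overlaps that of LOC100996842, with 2188 normalized counts in BEZ235 and 2181 in DMSO. Epithelial markers had 4 of 6 (1099 to 1325 against 1698 to 1743), with KRT5 and KRT19 at 0. KRT8 fell from 1263 ± 46.8 to 638 ± 37.7 and EPCAM rose from 55.3 ± 13.9 to 115 ± 23.0 (SD, n = 3). CDH1 and KRT18 were not called. Fibroblast markers had 5 of 5 (11431 to 12533 against 11535 to 12699). Within the fibroblast list the members moved apart: LUM fell from 863 ± 149 to 135 ± 8.83 and COL1A1 from 8449 ± 485 to 5078 ± 217, PDGFRB rose from 2157 ± 51.6 to 5834 ± 353 (SD, n = 3), DCN rose by 0.25 on the log2 scale and COL1A2 was not called. The part of these markers in the results above was not tested.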

How the data were processed

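The authors deposited 1 table of normalized signal (read counts per gene after scaling, none below 0) with 3 BEZ235 and 3 control columns; controls were matched by number to the DMSO samples. FastQC, Picard, SAMtools, STAR 2.4.0, DESeq and build hg38 are named, without roles, per the submitters' processing notes. Rows are FASTDB genes, per the file headers. The sources used here do not state how reads were counted or by which strand. Each column held whole multiples of 1 step (100% of values, within 0.01 normalized counts), and dividing by it gave whole reads. A count of 0 allows up to 3 reads, worth 2.50 to 3.47 normalized counts depending on the library; such limits cover counting error only.

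A gene was tested if 3 or more libraries held 10 or more normalized counts, by limma 3.58.1 (R 4.3.3, mean-variance trend) on log2(normalized count + 1), a scale that understates changes of low genes. On the whole reads 15744 genes were called by edgeR 4.0.16 and 15706 by DESeq2 1.42.0, where limma called 15863. With 3 against 3, an exact permutation test cannot give a p below 0.1, so none was used. Replicates of a group differed by more than sampling noise. Lengths are the longest coding transcript in GENCODE v29 (GRCh38); which transcripts the cells use was not measured. Genes named outside the 10 are the other family genes and, per pathway list, up to 2 called genes in each direction with the smallest adjusted p. Other genes are named because their rows overlap a named one, are copies of one, or are markers. MAML1, MAML3, DTX1, DTX2, DTX3L, NEURL1 and ADAM10 were named after their values were seen. The members and lists were chosen with earlier results of these data known. The limma test was also run on simulated counts with far fewer changed genes than were called here. That run therefore does not check the scaling in data with as many changes as these.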

Additional observations from a re-analysis of the deposited data

How the results depend on the processing

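Of the 10 genes, 9 kept their direction and their side of the threshold under all 15 alternatives: TMM and total-count scaling, pseudocounts of 0.5 and 10, no filter and a filter at 50, the replicate block, both count tests, and leaving out each library. JAG2 kept its direction and lost its call in 6 of them, as given above. Leaving out each library gave 5 to 6 of the 10 genes higher and 4 lower, 6883 to 7993 of all genes higher and 6993 to 7687 lower, and 32 to 37 pathway genes higher and 32 to 35 lower. Of 39 other family and pathway genes followed in this way, 36 kept direction and call in each alternative that gave a value. HES7, NRARP and NEUROD1 lost their calls in the settings named beside them. Named genes outside these 39 also depended on the processing. DTX1, ADAM10, NOTCH2NLA, NEUROG2 and KRT18, not called in the main fit, were called in at least 1 alternative. HES3, too low for the main fit, was called higher with no filter. DCN, HBA1 and LYZ lost their calls in at least 1. Same-numbered libraries did not deviate together (correlations -0.0379, 0.0231 and 0.0435), and not every library correlated best with its own number; with the replicate number as a block 7932 genes were called higher and 7985 lower, against 7912 and 7951 without it, and the same 6 and 4 counts held for the 10 genes. Total-count scaling moved the median of all genes from -0.00085 to -0.0965, and with it the balance of directions: 6723 genes were called higher and 8678 lower, and 27 pathway genes higher and 38 lower, against 36 and 36. HEY2, NOTCH4, DLL4, HES3, HES5, HELT, LFNG, DTX1, DTX4, CNTN6, MIR4673 and the markers LYZ, EPCAM, CDH1 and COL1A2 had under 100 reads in at least 1 library. This limits the precision of their changes.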
